A study of Mus musculus with 4 samples.

Results

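Cathepsins and legumain are the proteases of endosomes and lysosomes, and 10 of their genes were followed here in conventional dendritic cells type 2 (cDC2) of the mouse spleen: Ctsa, Ctsb, Ctsc, Ctsd, Ctse, Ctsh, Ctsl, Ctss, Ctsz and Lgmn. The set was chosen by name, as proteases of these compartments, and by the measured difference in log2 intensity between Id2 knockout and wild-type cells, in which Ctse was lower. The values of that comparison are therefore given for these genes as a description. The fit across all genes supplies their intervals and 1 count below, which are no test of them. Each of the 10 had a single probe set annotated to its symbol alone, out of 19938 genes measured in this way, and all 10 passed the filter on dim genes (a mean log2 intensity over the 4 arrays above 6.77, the 40th percentile).

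The cDC2 were sorted by flow cytometry, and the RNA of each sample was hybridised to an Affymetrix array. The wild-type (WT) group was 2 samples from Zbtb46-GFP chimeric mice, whose reporter labels cells with active Zbtb46, a gene of conventional dendritic cells, by green fluorescence. The Id2 KO group was 2 samples from chimeric mice with the same reporter and a knockout of Id2, an inhibitor of DNA binding by E proteins. How the chimeras were made, which host cells remained, and the age of the mice were not given in the sources used here. Replicates are not tied to individual mice by any label, so p-values and SDs cover sample-to-sample spread alone, and that spread may be technical. The source is the spleen in the labels, although the design text mentions bone marrow as well.

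These enzymes cut proteins taken up by the cell, and in dendritic cells they degrade antigen and trim the invariant chain Cd74 from MHC class II molecules so that peptides can be loaded. Most are cysteine proteases of the papain family, held in check by cystatins. Ctsd and Ctse are aspartic proteases, Ctsa is a serine carboxypeptidase, and legumain cuts after asparagine. Their precursors are mostly carried to lysosomes by mannose 6-phosphate receptors, and factors of the MiT/TFE family such as Tfeb promote transcription of many lysosomal genes.

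Some facts of the whole series bear on every value below. Id2 was at a log2 intensity of 9.14 and 9.08 in WT, against 8.71 and 8.97 in the arrays with the label Id2 KO, a difference of -0.27 that did not pass the test across all genes (limma, Benjamini-Hochberg adjusted p = 0.172). The deleted part of Id2 was not given, so its probe set may check nothing, and directions rest on the labels. Xist was at 11.96 on each WT array but 6.67 and 6.68 on the Id2 KO arrays, and the Y-linked genes Kdm5d (means 5.63 and 8.29), Uty (4.61 and 7.85) and Eif2s3y (3.89 and 5.18) were higher on the latter. Genotype and sex-linked expression thus split the arrays the same way and cannot be told apart. Of 14 markers of cDC2 and conventional dendritic cells, 12 passed the filter, and Clec10a and Mgl2 lay below it. Of the 12, 4 fell and 1 rose (limma, adjusted p under 0.05; 2.52% of all genes tested fell and 5.53% rose). Zbtb46, the gene of the reporter (-1.02), Cd4 (-0.84), Klf4 (-0.41) and Itgam fell and Esam (0.53) rose, while the integrin gene Itgax differed by -0.01.

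Ctse had the largest difference of the 10 members. It encodes cathepsin E, an endosomal aspartic protease of immune and stomach cells that is also known from the erythrocyte membrane. On the log2 scale its intensity reached 9.39 and 9.81 in WT, against 8.36 and 7.92 in Id2 KO. Both WT arrays lay above both others, and the groups did not overlap. The mean was 9.60 ± 0.30 in WT and 8.14 ± 0.31 in Id2 KO (SD, n = 2 each), a difference of -1.46 on the log2 scale (95% interval -1.84 to -1.09 before adjustment), or 2.75-fold lower. All 4 values lay above the filter level of 6.77, so the gene stayed above that level in Id2 KO too. Of the 11963 genes that passed the filter, 16 had a more negative difference.

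**Figure D1:**
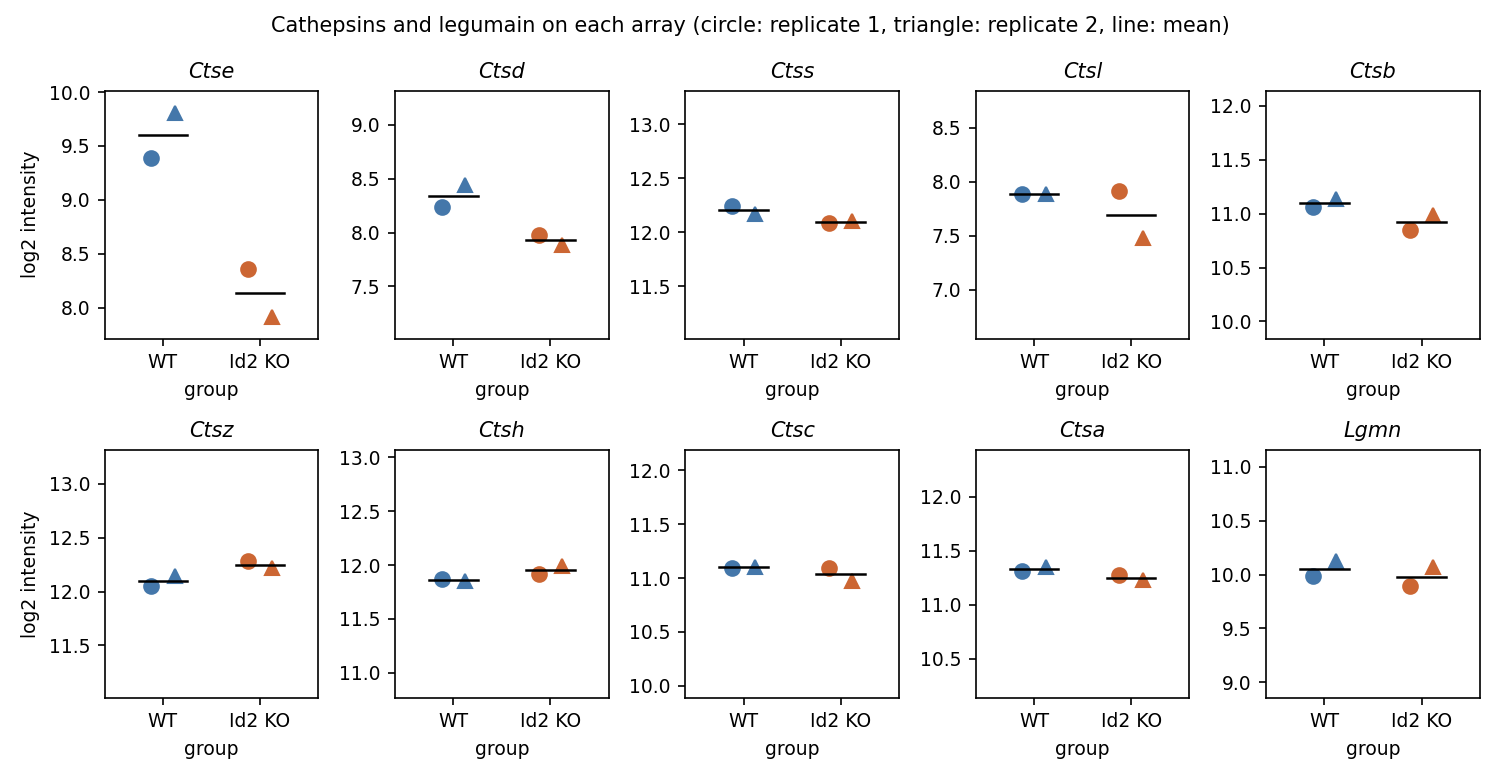
The log2 intensity of each member on each array, with WT in blue and Id2 KO in orange, replicate 1 as a circle, replicate 2 as a triangle and the group mean as a line; every panel spans the same height on the log2 scale, although levels of different genes are not comparable. Ctse lies between 9.39 and 9.81 in WT and between 7.92 and 8.36 in Id2 KO, while the groups lie close together in most other panels.

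The other aspartic member, Ctsd, was lower as well, by a smaller amount. Cathepsin D is the main aspartic protease of lysosomes. Its intensity on the log2 scale was 8.24 and 8.44 in WT, against 7.97 and 7.89 in Id2 KO. The groups did not overlap, and the difference was -0.41 (95% interval -0.62 to -0.20), or 1.33-fold lower. Napsa, which encodes another aspartic protease of endosomes and is not among the members, was at 11.32 and 11.40 in WT, against 11.47 and 11.35 in Id2 KO. Its groups overlapped, and its difference of 0.05 did not pass (limma, adjusted p = 0.818).

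The stretch before the start of Ctsd is shown because Ctsd has the most negative difference among the members with a window here. That of Ctsa is shown as a member whose difference was near 0 (-0.08), although Ctsc and Lgmn (-0.07 each) were nearer. Windows of 250 bases before the gene start came from RefSeq (GRCm38.p6) and matched 7 of the 10 genes, all but Ctsb, Ctse and Ctsh, with 9 windows in all. Capitals mark CACGTG, the core of the element bound by MiT/TFE factors and by other basic helix-loop-helix proteins, which reads the same on both strands. The Ctsd window lies on the minus strand at chr7:142387828-142388077 and holds the motif at 245 and 98 bases before the start. The Ctsa window, of the downstream of its annotated starts, lies on the plus strand at chr2:164833523-164833772 and holds it at 12 bases before the start. The other Ctsa window and the only Ctsc window do not hold the motif.
Ctsd: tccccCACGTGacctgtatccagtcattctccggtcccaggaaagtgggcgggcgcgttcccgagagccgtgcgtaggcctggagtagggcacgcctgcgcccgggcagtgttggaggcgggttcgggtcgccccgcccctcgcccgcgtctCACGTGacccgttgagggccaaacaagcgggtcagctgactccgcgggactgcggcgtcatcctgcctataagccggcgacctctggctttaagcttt
Ctsa: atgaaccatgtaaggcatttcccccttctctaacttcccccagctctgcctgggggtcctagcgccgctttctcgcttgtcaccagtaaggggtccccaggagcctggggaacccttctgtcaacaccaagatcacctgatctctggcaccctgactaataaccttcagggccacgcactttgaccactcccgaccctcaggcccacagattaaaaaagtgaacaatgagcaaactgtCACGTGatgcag

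CACGTG was found before 4 of the 7 genes (Ctsa, Ctsd, Ctsl and Lgmn) and in 4 of the 9 windows, against 6.02% of all 32851 windows of this length. It occurred at least 2 times in the Ctsd window and in 0.429% of all windows. Letters typical of E protein sites were searched on both strands too, and they cannot match at the same position as the motif above. The letters CAGCTG were found before 3 of the 7 genes, Ctsa, Ctsd and Ctss. They were in 3 of the 9 windows, against 13% of all windows, and for Ctsa in the window not printed here. The letters CACCTG were found before 1 gene, Ctsa, in 2 of the 9 windows, against 17.2% of all windows. These matches describe letters in a window and are no sites of binding.

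The cysteine endopeptidases differed little. Ctss, the main protease that trims the invariant chain in dendritic cells, was at 12.24 and 12.17 in WT, against 12.09 and 12.10 in Id2 KO. The groups did not overlap, but the difference was only -0.11 (95% interval -0.29 to 0.07). Ctsl, which does the same work in thymic epithelium, was at 7.88 on both WT arrays and at 7.91 and 7.48 in Id2 KO. Its groups overlapped, and its difference was -0.19 (95% interval -0.48 to 0.11). That difference depended on the Id2 KO array used: it was 0.03 without replicate 2 and -0.40 without replicate 1. The deposited Ctsl value was identical on both WT arrays, as it was for 63 of 28853 probe sets, so the SD of 0 in WT is no measure of its error.

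Ctsb, a broad lysosomal protease with both endo- and exopeptidase activity, was at 11.06 and 11.13 in WT, against 10.85 and 10.99 in Id2 KO. Its groups did not overlap, with both WT arrays higher, and its difference was -0.18 (95% interval -0.37 to 0.02).

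The exopeptidases were divided in direction. Ctsz, a carboxypeptidase of the papain family, was at 12.05 and 12.14 in WT, against 12.28 and 12.22 in Id2 KO. Both Id2 KO arrays were higher, by a mean of 0.15 (95% interval -0.04 to 0.34). Ctsh, an aminopeptidase, was at 11.87 and 11.85 in WT, against 11.92 and 11.99 in Id2 KO, again without overlap and with a difference of 0.09 (95% interval -0.09 to 0.27).

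Ctsc, the dipeptidyl peptidase that activates serine proteases of granules, was at 11.10 and 11.11 in WT, against 11.09 and 10.97 in Id2 KO. Its difference was -0.07 (95% interval -0.26 to 0.12), most of it from Id2 KO replicate 2. Ctsa, the carboxypeptidase that also protects lysosomal β-galactosidase and neuraminidase, was at 11.32 and 11.35 in WT, against 11.27 and 11.23 in Id2 KO. The groups lay just apart, with a difference of -0.08 (95% interval -0.26 to 0.10). Lgmn, or legumain, which cuts antigen and single-chain forms of other cathepsins, was at 9.98 and 10.12 in WT, against 9.89 and 10.07 in Id2 KO. Its groups overlapped, and the difference was -0.07 (95% interval -0.29 to 0.14).

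**Figure D2:**
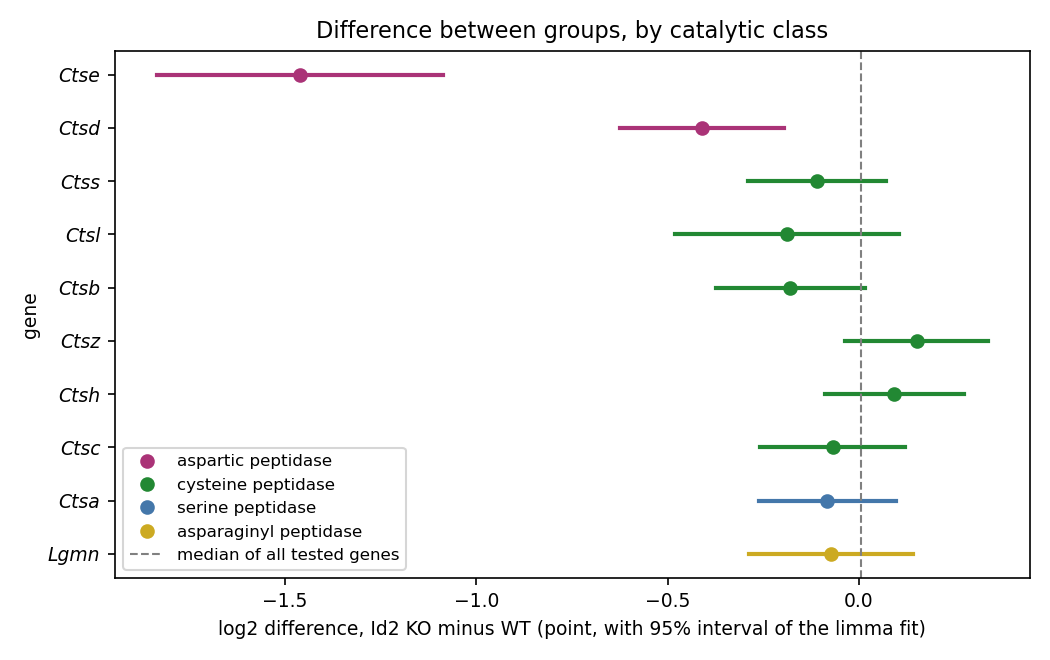
The log2 difference of each member, Id2 KO minus WT, as a point with the 95% interval of the limma fit, coloured by catalytic class; the dashed line is the median of all tested genes, 0.01. The intervals of Ctse and Ctsd lie below 0, and those of the other 8 members include 0.

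Across the 10 members, 8 differences were negative and 2 positive, with a median of -0.10 (0.01 over all genes tested), and without Ctse the median of the other 9 was -0.08. The median size of a difference regardless of sign was 0.13 in the members and 0.10 over all genes. Ctse and Ctsd were past the threshold of the fit (limma, adjusted p under 0.05 over all genes), 2 of 10 members, where 8.04% of all genes tested were (5.53% higher and 2.52% lower). Since this comparison chose the members, nothing is read from that count. Groups did not overlap for 8 of 10 members, 6 of them lower and 2 higher in Id2 KO, but with 2 arrays a group this held for 50.7% of all genes tested (22.8% lower and 27.9% higher).

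The spread between replicates did not enter the choice of the members, and it differed widely among them. Ctse had a pooled within-group SD of 0.30 on the log2 scale, at percentile 99.5 of the genes tested, where the median was 0.08. Its WT arrays were 0.42 apart and its Id2 KO arrays 0.44 apart. Ctsl followed with 0.22 (percentile 97.3), while Ctsa (0.03, percentile 10.7), Ctss (0.03, percentile 14.0) and Ctsh (0.04, percentile 15.1) were among the tightest. Each of these SDs has 2 degrees of freedom and is imprecise, so the percentiles are a description of these arrays alone. The SD of Ctsl also includes its WT gap of 0. With each array left out in turn, the Ctse difference ranged from -1.68 to -1.24 and that of Ctsd from -0.51 to -0.31.

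The other genes of the pathway came from 6 lists, in which 42 genes were tested and 4 were past the threshold (limma, adjusted p under 0.05 over all genes), all of them lower in Id2 KO. The share was 9.52%, against 2.52% of all genes tested that were lower (8.04% in either direction). None of the 4 tested genes among other cathepsins passed (limma; 0 at an unadjusted p under 0.05). They were Ctsw (-0.21), a cathepsin of T and NK cells, Ctsll3 (-0.13), Ctso (0.05) and Ctsr (-0.03). Cathepsin genes known from the mouse placenta (Ctsj, Ctsq, Cts6, Cts7 and Cts8) lay below the filter, as did Ctsk of osteoclasts, Ctsf, and Ctsg of neutrophil granules. Ctsg was at 6.48 and 6.07 in WT, against 5.59 and 5.71 in Id2 KO.

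Of 7 tested genes among other lysosomal and aspartic proteases, none passed (limma; 1, Prcp, at an unadjusted p under 0.05). Prcp (0.19), a lysosomal carboxypeptidase, and Dpp7 (0.18), a dipeptidyl peptidase, had the largest differences. The groups of both lay apart, with the Id2 KO arrays higher.

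Inhibitors of the cysteine cathepsins were measured above the filter in 3 cases, and none passed (limma; 1 at an unadjusted p under 0.05). Cst7, a cystatin that acts inside lysosomes, was at 7.52 and 7.53 in WT, against 7.88 and 7.63 in Id2 KO, a difference of 0.23. Cst3, or cystatin C, differed by -0.18. Cstb, a cytosolic inhibitor, differed by 0.08 with overlapping groups.

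Genes of MHC class II presentation had small differences. Of 9 tested genes none passed (limma; 1 at an unadjusted p under 0.05), with a median of -0.03. Cd74, the invariant chain, was at 13.45 on both WT arrays and at 13.40 and 13.46 in Id2 KO. H2-Oa (-0.20) and H2-Ob (-0.14), which encode the chains of a modulator of peptide loading, had the largest differences, and their groups did not overlap. Ifi30, the thiol reductase that opens disulphide bonds before cleavage, differed by 0.10.

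Of 8 tested genes for lysosomal sorting and for MiT/TFE factors, none passed (limma; 2 at an unadjusted p under 0.05). Sort1, a sorting receptor of lysosomal proteins, was at 9.67 and 9.72 in WT, against 9.20 and 9.51 in Id2 KO, a difference of -0.34 (adjusted p = 0.107). Gnptg, a subunit of the enzyme that makes the mannose 6-phosphate tag, differed by -0.18. The transcription factor genes differed by 0.18 (Tfeb), 0.10 (Tfe3) and -0.04 (Mitf).

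**Figure D3:**
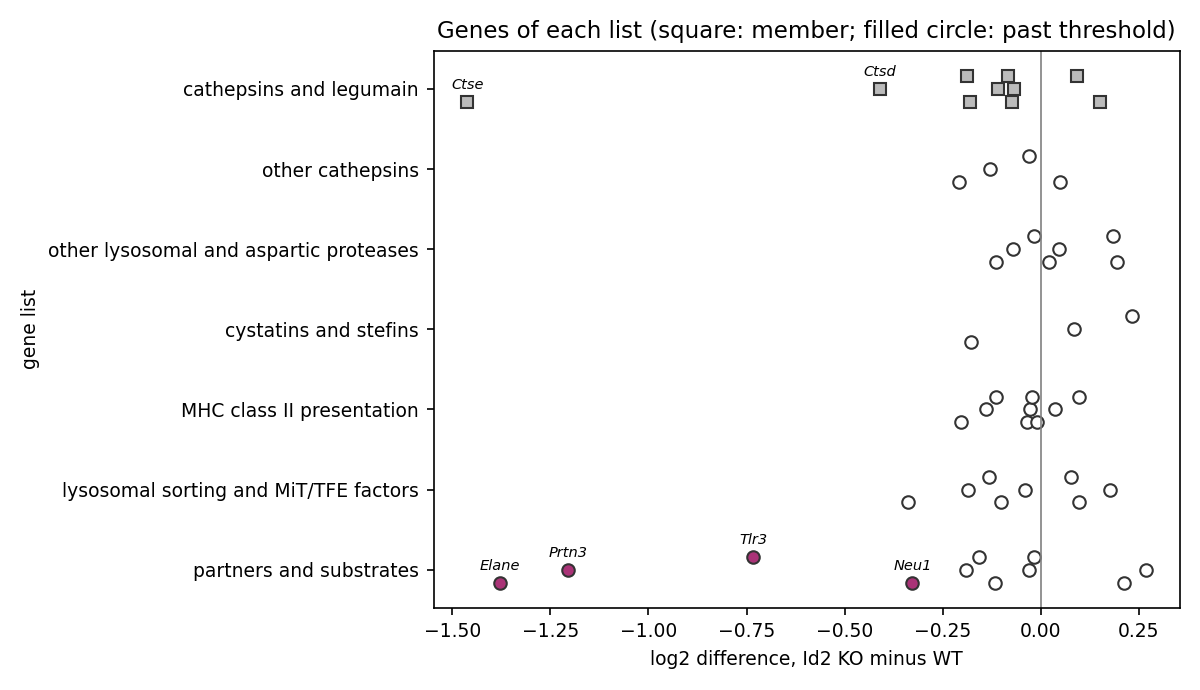
The log2 difference, Id2 KO minus WT, of the 10 members (grey squares, given as a description) and of every tested gene of the 6 pathway lists (circles), 1 point per gene, with circles filled where past the threshold over all genes; height within a list only separates points. Filled circles are Elane, Prtn3, Tlr3 and Neu1, all below 0, and the open circles lie between -0.34 and 0.27.

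The partners and substrates held all 4 genes past the threshold, among 11 tested, with a median of -0.16. The share was 36.4%, against 2.52% of all genes tested that were lower (8.04% in either direction). The list was chosen with earlier results of these data known, so nothing is read from that share. Elane and Prtn3, neutrophil serine proteases that Ctsc activates, fell by 1.38 and 1.21 (limma, adjusted p = 8.26e-05 each). Both are also in the list of neutrophil markers. Tlr3, an endosomal RNA receptor that cathepsins cleave and that marks cDC1, fell from 8.04 and 8.09 to 7.41 and 7.25, a difference of -0.73 (limma, adjusted p = 0.00103). It was the only 1 of 6 tested cDC1 markers past the threshold, and the median difference of those 6 was 0.003. Neu1, the neuraminidase held in a complex with Ctsa, fell from 8.46 and 8.49 to 8.14 and 8.16, a difference of -0.33 (limma, adjusted p = 0.0361). Its difference lay between -0.37 and -0.31 over the 12 alternatives, but in 7 of them it did not pass (adjusted p from 0.0178 to 0.176 over the 12), including all 4 fits with 1 array left out. The β-galactosidase gene Glb1 of the same complex differed by -0.02. Tlr9 (0.21), Tlr7 (-0.19) and Tlr13 (0.27), other endosomal receptors, did not pass (limma, adjusted p = 0.232, 0.281 and 0.0818).

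The genes with the pattern most like that of Ctse over the 4 arrays were Slc15a2, Trem1, Hcar2, Lpin1 and Lrg1, in this order. Likeness was the root mean square difference of log2 values after each gene's own mean was subtracted, and it was 0.05, 0.10, 0.12, 0.14 and 0.15. Slc15a2, a proton-coupled transporter of peptides, was at 7.75 and 8.06 in WT, against 6.62 and 6.18 in Id2 KO, where it lay below the filter level. Trem1 is an activating receptor of myeloid cells, Hcar2 a receptor for hydroxy-carboxylic acids, Lpin1 a phosphatidate phosphatase and Lrg1 a secreted glycoprotein. Their differences lay between -1.51 (Slc15a2) and -1.23 (Lpin1). The genes were picked by these same 4 values, so that they share the direction and the replicate order of Ctse follows from the choice. Among the members Ctsd came nearest, as gene 183 of 11962 at a root mean square difference of 0.55.

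**Figure D4:**
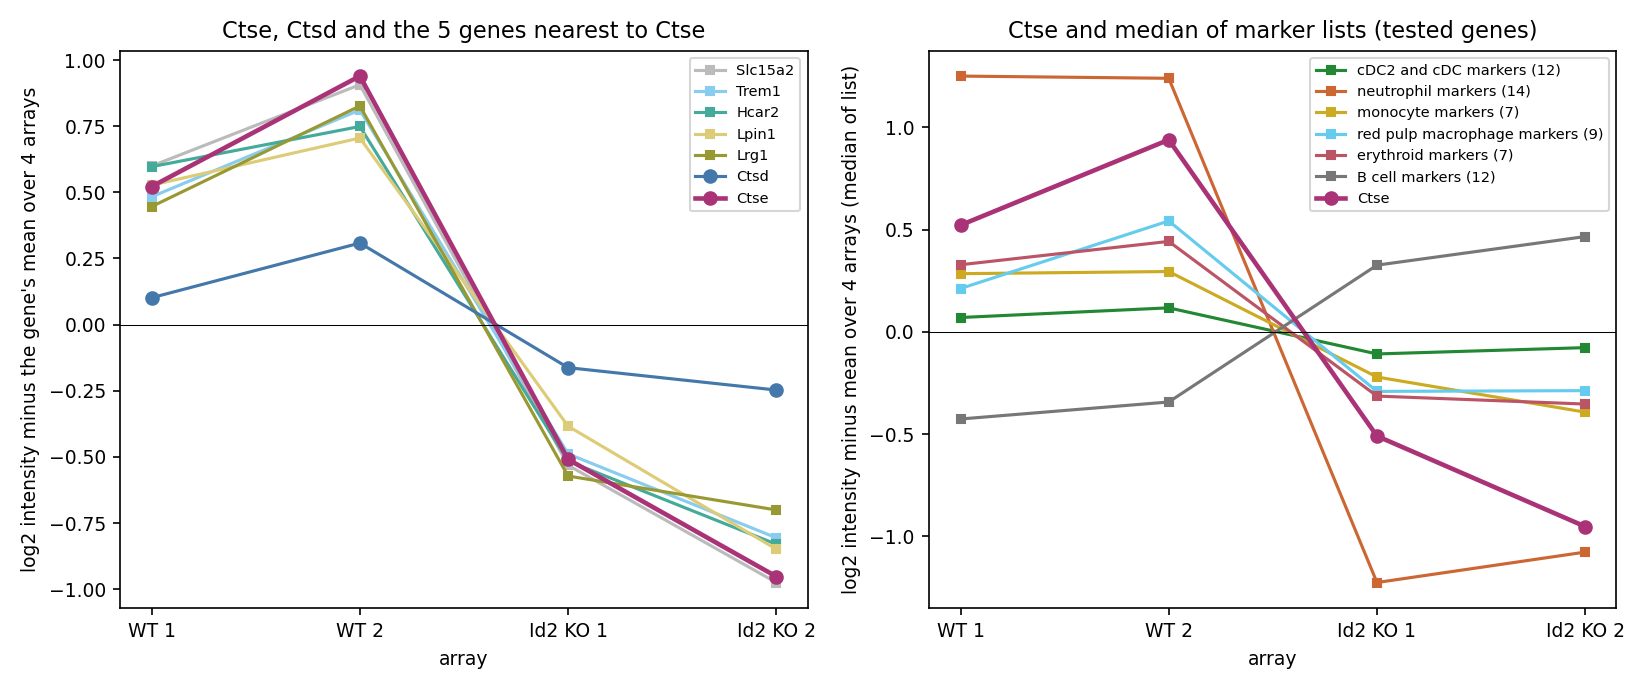
Left, the log2 intensity on each array minus the gene's mean over the 4 arrays, for Ctse, Ctsd and the 5 genes nearest to Ctse; right, Ctse beside the median of such values over the tested genes of 6 marker lists, with the number of genes in parentheses. Ctse and its nearest genes peak on WT replicate 2 and, on the right, the neutrophil, monocyte, macrophage and erythroid medians are also higher on the WT arrays, while the B cell median is lower.

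Markers of other blood cells moved between the same groups. Of 14 tested neutrophil markers 13 fell and 1 rose (limma; 2.52% of all genes tested were past the threshold and lower), and the summed linear intensity of the measured markers was 19371 to 20161 in WT and 3415 to 4531 in Id2 KO. Ngp (-4.19), Lcn2 (-4.19) and S100a8 (-3.81) had the largest differences. Of 9 tested red pulp macrophage markers 7 fell, led by the iron exporter gene Slc40a1 (-1.19) and the complement genes C1qc (-1.02) and C1qa (-1.01), and the sum was 3709 to 4278 in WT and 2692 to 2730 in Id2 KO.

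All 7 tested erythroid markers fell, led by the anion exchanger gene Slc4a1 (-1.49), Car1 (-1.34) and Alas2 (-0.94), with sums of 2096 to 2349 and 1110 to 1118. Of 7 tested monocyte markers 4 fell, with Chil3 (-2.02), Cd14 (-0.88) and Lyz2 (-0.72) the largest and sums of 4694 to 5028 and 3732 to 3833. Of 12 tested B cell markers 10 rose, led by Fcmr (1.67), Ms4a1 (1.53) and Cr2 (1.28). Their sums were 1842 to 1848 in WT and 3307 to 3768 in Id2 KO. Over all genes tested, 5.53% were past the threshold and higher, and 2.52% past it and lower. No marker was listed at 0. Both Id2 KO values of Slc40a1 and Chil3, and both WT values of Cr2, lay below the filter level, as did Lcn2 on Id2 KO replicate 1. The size of these differences is uncertain.

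Within the groups, the order of the replicates was not shared by all of these lists. Relative to its own mean, Ctse was at 0.52 and 0.94 on the WT arrays and at -0.51 and -0.95 on the Id2 KO arrays. The median of the monocyte list was at 0.28 and 0.30, then -0.22 and -0.39, in the order of Ctse in both groups. Of its 7 tested genes, only 3 (Cx3cr1, Fn1 and Treml4) had that order themselves. The median of the macrophage list was at 0.21 and 0.54, then -0.29 and -0.29, and that of the erythroid list at 0.33 and 0.44, then -0.31 and -0.35. The order of Ctse in both groups was seen in 4 of 9 macrophage and 2 of 7 erythroid genes. The neutrophil median was at 1.25 and 1.24, then -1.23 and -1.08, so the Id2 KO arrays came in the opposite order from Ctse. Single neutrophil genes differed in this, and 5 of the 14 (Cxcr2, Elane, Mmp8, Mmp9 and Prtn3) had the order of Ctse in both groups. That order was also seen in 7 of 11 cell cycle genes, which rose in Id2 KO, and in 1 of 12 B cell genes. Its share over all genes tested was not counted, so nothing is read from these counts. In sorted samples measured in bulk, fewer cells of a type and less RNA per cell cannot be told apart. The part of other blood cells in the Ctse and Ctsd differences was not tested.

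Counting protein-coding genes outwards from Ctse in the GRCm38.p6 gene table, its neighbours were Avpr1b, Fam72a and Srgap2 on one side and Rab7b, Slc26a9 and Pm20d1 on the other. Srgap2 alone passed the filter; the other 5 lay below it and were not tested. Srgap2 rose from 8.19 and 8.20 to 8.59 and 8.52 (difference 0.36; limma, adjusted p = 0.0264). Rab7b, a small GTPase gene of late endosomes, had a difference of -0.14 at levels of at most 5.89. Fam72a was at 5.73 and 5.63 in WT, against 7.05 and 6.58 in Id2 KO, and the other 3 differed by between -0.05 and 0.13.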

How the data were processed

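Each deposited value is the linear intensity of a probe set on an array, from 5.19 to 18624. Per the labels' protocols, cDNA was amplified from small amounts of RNA with a NuGen Ovation kit, which can shift levels. Per the submitters' processing notes, the authors used Affymetrix Expression Console and RMA, named without version or order. RMA subtracts background and equalises the arrays, so a change in total RNA per cell is largely removed. The return to a linear scale is recorded in no source used here, and the genome build was not given. Array medians were 128 to 134.

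The log2 of each intensity was taken without a pseudocount. Of 28853 probe sets, 21789 had 1 gene symbol in the platform annotation, 1621 had more than 1, and 5443 are unnamed here; the brightest of a gene was used. The 11963 genes whose mean exceeded the 40th percentile (log2 6.77) were tested with limma 3.58.1 in R 4.3.3 (lmFit, eBayes), two-sided, with a Benjamini-Hochberg threshold of 0.05. The prior SD was 0.0887 with 6.77 degrees of freedom, added to 2 residual ones. Intervals are unadjusted 95% intervals of this fit, and 2 arrays a group limit the precision. On simulated data for this comparison (11963 genes, drawn independently, 200 of them changed) 9.8% of genes changed 1.25-fold were recovered. The share was 84.1% of those changed 1.5-fold and 99.1% of those changed 2-fold. With that many changed genes, most differences near the smallest of these sizes would be missed. Unchanged genes made up 5.39% of the simulated calls. In the data 962 genes passed, so the recovery of small differences there may not be the same.

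The members and lists were chosen with earlier results of these data known. Named genes were all members, the genes past the threshold and the 2 largest differences of each pathway list, the 5 genes nearest to Ctse, 3 neighbours on each side of it and 3 genes per marker list. Further genes of the lists were named after their values were seen, for their role. The lists for cDC1, pDC, T and NK cells, and cell cycle were described in part or not at all. They held 1 lower gene of 6 tested, 4 higher of 7, 1 lower of 6 and 11 higher of 11, in this order. Over all genes tested, 2.52% were lower and 5.53% higher. Alternatives were other filters, scalings, a pseudocount of 16, the mean of probe sets, an intensity trend, the replicate number as a block and each array left out.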

Additional observations from a re-analysis of the deposited data

How the results depend on the processing

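The 12 alternative settings left the sign of 8 members' differences as it was, and Ctsl and Lgmn changed sign with 1 array left out (0.03 and 0.02 at most). The count of genes past the threshold, 962, ranged from 459 (without WT replicate 1) to 1171 (without Id2 KO replicate 2) with an array left out and from 684 to 1019 otherwise. It was 627 without WT replicate 2. The count of members past the threshold was 2 (Ctse and Ctsd). Among the settings that kept all 4 arrays, it was 1 without a filter and 1 with the replicate block. In both of these settings Ctsd was the member no longer past the threshold. With an array left out, 1 group has a single array, so whether a member passed is not given for those fits. The Ctsd difference ranged from -0.51 to -0.31 in them. The members were chosen on this comparison, so these counts are no measure of stability. In the pathway lists the count was 4, and 3 to 5 elsewhere; Elane and Tlr3 were past the threshold throughout. Prtn3 was too where it was tested. The cause of these changes was not tested. Same-numbered replicates of the groups did not deviate in the same direction (correlation -0.14 over 11963 genes). With 2 arrays a group this cannot decide whether samples were paired, and no label states a pairing. The replicate block gave 684 genes in all and 3 in the pathway lists. With crossed pairs, a choice made after seeing the data, 1380 genes passed, 2 of them members. The values used here came with no background level or detection call. The size of a difference is therefore uncertain for genes near the filter level.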
